A study of Mus musculus with 32 samples.

Results

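The comparison described here sets haematopoietic stem cells (HSC) of double mutant mice, which carry the Jak2V617F allele together with a knockout of Jarid2, against HSC of mice with Jak2V617F alone. Its members are the RNA-seq libraries whose titles give these groups, 2 libraries of each, 4 of the 24 RNA-seq libraries of the series and of 32 samples in all. Both groups were C57BL/6 mice with the Mx1-Cre transgene, a recombinase under an interferon-inducible promoter, and were 10 weeks old, 2 months after induction with pIpC, a double-stranded RNA analogue that triggers interferon. Induction through Mx1-Cre is not limited to blood cells. HSC were sorted from bone marrow as lineage-negative, cKit+, Sca1+, CD150+ and CD48- cells. Marrow was pooled over mice, which the protocol gives once as 5 males and 5 females and once as 3 males and 3 females, and libraries were made with a SMARTer Ultra Low kit, which does not mark strand, from 3 to 5 ng of RNA. The protocol calls such pools biological replicates, but gives 3 of them and an age of 8 weeks where the Mx1-Cre groups have 2 libraries and a labelled age of 10 weeks. Unless another fit is named, p-values of this comparison come from a fit of all 12 Mx1-Cre RNA-seq libraries. They measure the spread within its 6 groups and not only within the 2 groups compared. Which mice went into which library is not given in the sources used here. In the series' design text the place of the Jak2V617F group is taken by a Jarid2-KO group without Jak2V617F, and the groups here follow the labels of the samples.

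Jarid2 encodes a DNA-binding partner of Polycomb repressive complex 2 (PRC2), which methylates histone H3 at lysine 27 and helps keep genes of other cell states silent. JAK2 is the kinase bound to the receptors of erythropoietin and several other cytokines, and its V617F form signals without ligand through STAT5 and drives myeloproliferative neoplasms. HSC are rare, mostly quiescent cells that renew themselves and give rise to all blood lineages, and genes such as Hlf, Mecom and Meis1, which encode transcription factors, mark them or help maintain them.

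The 4 libraries held 9028747 to 16929392 counts. Each group had 1 library with a large share of counts in 20 heart muscle genes such as Ttn and Myh6, called heart-high (7.77% in the double mutant and 6.15% in Jak2V617F), and 1 with a small share, called heart-low (0.531% and 0.821%). The 2 libraries high in heart RNA were also higher in mitochondrial transcripts (5.87% and 4.96%, against 1.57% and 1.49%), in the Y-linked gene Ddx3y (88.5 and 78.5 CPM, counts scaled to the library total, against 7.75 and 9.65) and in summed stroma and endothelium genes (5197 and 4077 CPM, against 535 and 638). The heart level therefore separated libraries within each group and was matched between the groups, so values are given for heart-high against heart-high and for heart-low against heart-low, beside a fit with a term for the level. The part of the heart level in any single result below was not tested beyond that term.

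The labelled cell type was checked first against its own markers. Hlf, a defining HSC transcription factor, stood at 147 CPM in the heart-high and 427 CPM in the heart-low double mutant library, and at 25.0 and 14.9 CPM in the Jak2V617F libraries in the same order. Slamf1, which encodes the sort marker CD150, stood at 30.8 and 124 CPM in the double mutant and at 5.04 and 12.7 CPM in Jak2V617F. Cd48, the marker that the gate leaves out, ran the other way, with 13.9 and 20.2 CPM in the double mutant and 93.7 and 123 CPM in Jak2V617F. The groups did not overlap in any of these genes. Here and below, such separation only describes the printed values, and with 2 libraries a group it can arise by chance. Its share over all genes tested was not counted, and many of the genes named below were chosen by their p in these libraries. The Vav-Cre mice of the same series were labelled younger than the Mx1-Cre mice, with no time after pIpC given. The part of age and induction in their marker levels was not tested. In HSC of the Vav-Cre control mice, counted separately, Hlf ran from 592 to 747, Slamf1 from 57.4 to 66.1 and Cd48 from 6.46 to 14.4 CPM. The libraries labelled Jak2V617F HSC thus had low HSC markers and high Cd48, and so did the Mx1-Cre control HSC libraries, with Hlf at 14.3 and 33.5 CPM and Cd48 at 122 and 133 CPM. The data therefore go against the HSC label of the Jak2V617F libraries. Both double mutant libraries were also below the Vav-Cre control range for Hlf. For Slamf1 the heart-high one was below that range and the heart-low one above it. For Cd48 the heart-high one lay within it and the heart-low one above it. The summed level of 35 HSC identity and self-renewal genes was 3650 and 8773 CPM in them, against 10530 to 11340 CPM in Vav-Cre control HSC. In every result below, genotype and the cell content of the libraries cannot be told apart. Likewise, in bulk samples fewer cells of a type and less RNA per cell cannot be told apart.

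Jarid2 (ENSMUSG00000038518, mm10 chromosome 13, 44729474 to 44921643), the deleted gene, had 68.3 CPM in the heart-high and 169 CPM in the heart-low double mutant library, and 63.5 and 51.5 CPM in the Jak2V617F libraries. It was thus not lower in the libraries labelled as knockout, and the log2 difference was 0.65 ± 0.34 (SE) with an adjusted p of 0.468. Reads from every exon enter the count, so transcripts of an allele without its deleted exons would still be counted, and these levels do not check the genotype. Jak2 (ENSMUSG00000024789, chromosome 19, 29251828 to 29313080) stood at 43.8 and 48.3 CPM in the double mutant and at 43.6 and 34.0 CPM in Jak2V617F, an adjusted p of 1, and gene counts cannot show its V617F change.

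HSC genes stood higher in the double mutant libraries and granulocyte, red cell, lymphoid and mitosis genes stood lower. With the term for the heart level, edgeR's quasi-likelihood test called 539 of 19616 genes at an adjusted p of 0.05 (2.75%), 187 higher (0.953%) and 352 lower (1.79%) in the double mutant. All 539 had the same sign at both heart levels, and 148 of the higher and 294 of the lower genes also differed by at least 2-fold at both levels. The fit that made the calls held these same libraries, so this agreement is not separate evidence. Over all genes tested, without regard to the fit, 526 (2.68%) were at least 2-fold higher and 679 (3.46%) at least 2-fold lower at both levels, a count with 1 library against 1 and no p-value. Without the heart term no gene was called (0%, lowest adjusted p 0.202), although 919 genes had an unadjusted p under 0.05, and DESeq2 on the same design called 345. The calls rest on few libraries. With the heart term they numbered 129 when only the 4 HSC libraries were fitted, 289 without the heart-low double mutant library, 419 without the heart-low Jak2V617F library, 844 without the heart-high Jak2V617F library and 1162 without the heart-high double mutant library. The shares of 0.953% higher and 1.79% lower over all genes stand beside every count of list members below, and no list was tested as a set. The median log2 difference of all genes was -0.09, and all differences below are log2 values of the fit with the heart term, unless another is named.

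**Figure D1:**
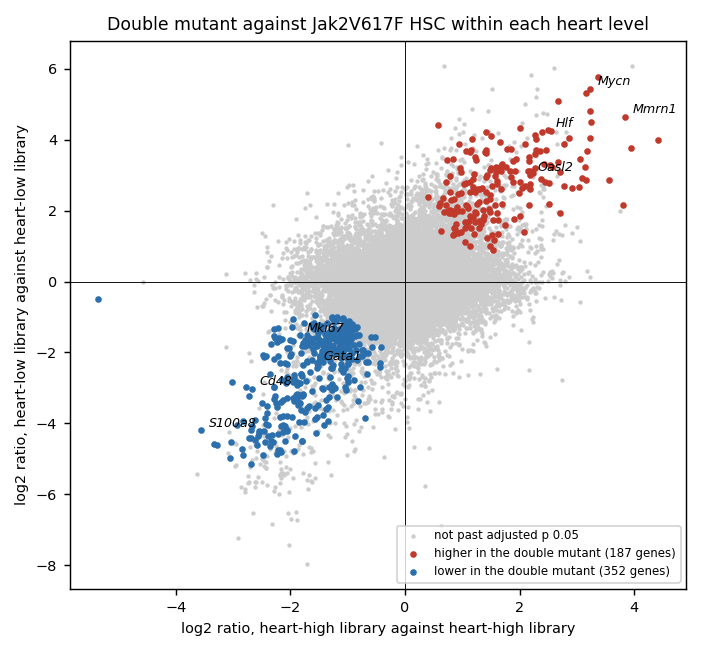
Each point is 1 tested gene, with the log2 ratio of the double mutant to the Jak2V617F HSC library among the heart-high libraries on the x axis and among the heart-low libraries on the y axis. The 187 genes called higher with the heart term lie in the upper right and the 352 called lower in the lower left, so all 539 have the same sign at both levels. The ratios come from libraries that the fit itself used.

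Of 35 genes of HSC identity and self-renewal, 18 rose in the double mutant and none fell, and the median of the list was 2.33, with 1.15 within the heart-high and 2.71 within the heart-low libraries. Meis1 (ENSMUSG00000020160, chromosome 11, 18879817 to 19018985), a homeobox transcription factor of HSC, had 396 and 1183 CPM in the double mutant and 86.8 and 73.2 CPM in Jak2V617F, a difference of 2.79 ± 0.35 (adjusted p 1.41e-05). Hlf (ENSMUSG00000003949, chromosome 11, 90336536 to 90390895) rose by 3.38 ± 0.42 (adjusted p 3.94e-05), with 2.50 within the heart-high and 4.27 within the heart-low libraries. For both genes the double mutant libraries were above both Jak2V617F libraries, and the heart-low double mutant library was the highest of the 4.

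Angpt1, the ligand of the receptor Tie2, had 224 and 673 CPM in the double mutant and 61.9 and 54.2 CPM in Jak2V617F, a rise of 2.49 ± 0.33 (adjusted p 1.64e-05). Mecom, a zinc finger factor of HSC, had 69.9 and 156 against 23.8 and 5.57 CPM and rose by 2.98 ± 0.65 (adjusted p 0.0268). Mycn, a MYC family transcription factor active in HSC, had 54.7 and 196 CPM in the double mutant and 4.87 and 2.35 CPM in Jak2V617F, a rise of 4.67 ± 0.82 (adjusted p 0.00934). No library of one group reached the range of the other in these genes. Runx1t1, a transcriptional corepressor known from its fusion with RUNX1 in leukaemia, had 36.0 and 37.7 CPM against 6.58 and 0.68 CPM and rose by 3.72 ± 0.72 (adjusted p 0.00168). Mycn and Runx1t1 were put in the list with the published study in mind. Tek, the gene of Tie2, rose by 1.91 (adjusted p 0.00324), Gata2, a transcription factor of stem and progenitor cells, by 1.49 (adjusted p 0.0238) and Socs2, a feedback inhibitor of cytokine signalling, by 1.97 (adjusted p 0.0213).

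Of the genes that encode the sort markers cKit, Sca1, CD150 and CD48, only Cd48 passed the test. Procr, given beside them, was not part of this gate. Slamf1 differed by 2.71 ± 1.24 (adjusted p 0.461), Procr, the endothelial protein C receptor used to sort HSC, had 25.8 and 74.4 against 4.02 and 1.11 CPM (3.86 ± 1.69, adjusted p 0.464), and Ly6a, which encodes Sca1, had 78.2 and 149.7 against 48.4 and 7.05 CPM (2.33 ± 1.14, adjusted p 0.54). Kit, the stem cell factor receptor cKit, had 370 and 1120.5 CPM against 284 and 390 CPM (0.66 ± 0.30, adjusted p 0.361). Gfi1, a repressor that is high in granulocyte progenitors too, was the 1 member of the list with a negative value, -2.81 (adjusted p 0.191). The number of members that rose was 8 without the heart-low Jak2V617F library, 10 without the heart-low double mutant library, 26 and 28 without a heart-high library and 4 with only the 4 HSC libraries. Runx1t1 (adjusted p 0.059), Tek (0.171), Socs2 (0.203) and Gata2 (0.565) lost the call without the heart-low Jak2V617F library, and Socs2 (0.461) and Gata2 (0.425) also without the heart-low double mutant library. With only the 4 HSC libraries fitted, Hlf (adjusted p 0.0604), Mycn (0.0758), Runx1t1 (0.0953), Mecom (0.288), Tek (0.104), Socs2 (0.0885) and Gata2 (0.242) did not pass. Mecom also lost its call with DESeq2 size factors (adjusted p 0.0801) and with a minimum count of 20 (0.0555).

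**Figure D2:**
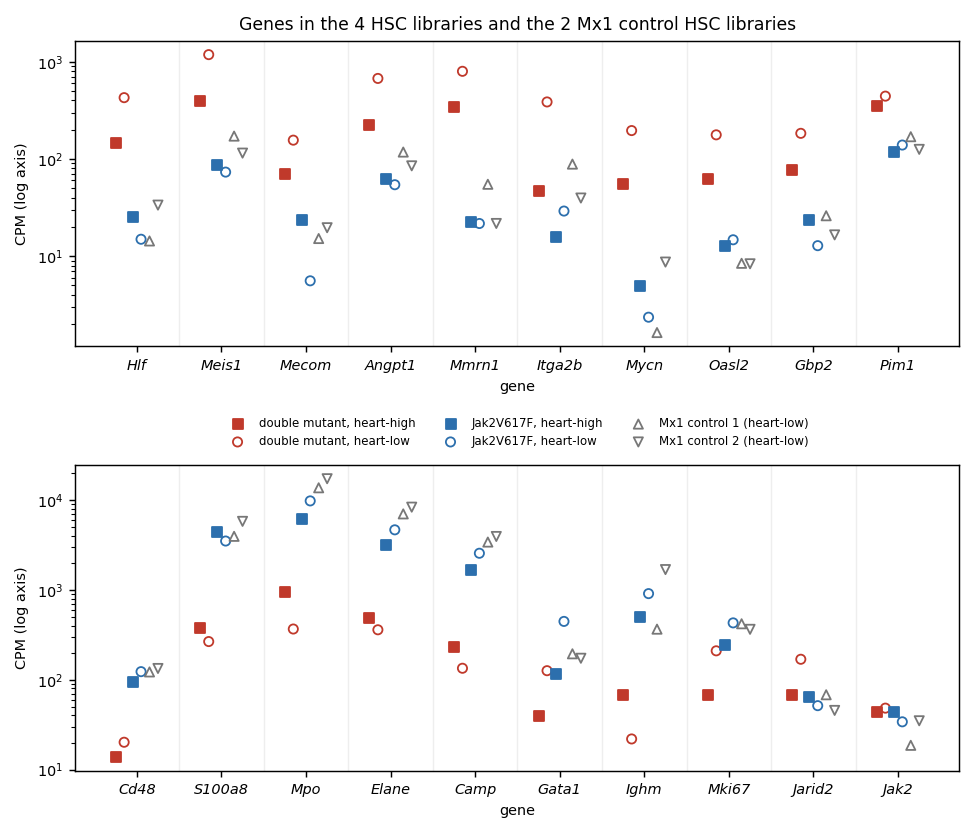
CPM on a log axis for genes that stood higher in the double mutant (top) and for Cd48, lineage and mitosis genes, Jarid2 and Jak2 (bottom), in the 4 HSC libraries and in the 2 Mx1-Cre control HSC libraries, with squares for heart-high and circles for heart-low libraries. For Mmrn1 both double mutant libraries (338 and 797 CPM) lie above both Jak2V617F libraries (22.5 and 21.6 CPM), and for Cd48 they lie below.

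Among 19 megakaryocyte and platelet genes, 7 rose and none fell, with a list median of 1.70. Mmrn1 (ENSMUSG00000054641, chromosome 6, 60924976 to 60989378), which encodes a platelet granule protein also made by HSC, had 338 and 797 CPM in the double mutant and 22.5 and 21.6 CPM in Jak2V617F, a rise of 4.28 ± 0.41 (adjusted p 1.21e-06). Itga2b, the platelet integrin CD41, had 47.1 and 386 against 15.8 and 29.1 CPM and rose by 2.34 ± 0.51 (adjusted p 0.0186). Selp, the adhesion receptor P-selectin, had 47.8 and 133 against 10.0 and 10.1 CPM and rose by 2.69 (adjusted p 0.0016). The groups did not overlap in these genes, and the heart-low double mutant library was the highest. Vwf, the clotting carrier protein, rose by 1.58 (adjusted p 0.0137), and Pf4, a platelet chemokine, by 1.71 (adjusted p 0.0391). Ppbp, another platelet chemokine, stood at 0.413 and 4.21 CPM in the double mutant and at 1.03 and 5.63 CPM in Jak2V617F and did not pass (-0.98, adjusted p 0.918). Vwf belongs to the HSC list as well. Without the heart-low Jak2V617F library 3 members rose and Selp (adjusted p 0.0533), Vwf (0.0857) and Pf4 (0.606) lost the call, and without the heart-low double mutant library 4 rose and Vwf (1) and Pf4 (0.405) lost it. With only the 4 HSC libraries 3 rose and Itga2b (adjusted p 0.0875), Vwf (0.236) and Pf4 (0.303) lost it, and Pf4 also did with the log2 heart share as the term (0.051) and a minimum count of 20 (0.0592).

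Of 31 interferon response genes, 4 rose and none fell. The list median was 0.94, with 0.54 within the heart-high and 1.30 within the heart-low libraries, and 28 of the 31 had a positive value. Both groups had received pIpC. Oasl2, an interferon-induced member of the oligoadenylate synthetase family, had 62.2 and 177 CPM in the double mutant and 12.8 and 14.7 CPM in Jak2V617F, a rise of 2.66 ± 0.41 (adjusted p 8.67e-05). Gbp2, a guanylate-binding GTPase of cell-autonomous defence, had 77.2 and 183 against 23.3 and 12.8 CPM and rose by 2.55 ± 0.41 (adjusted p 0.000236). Ifi44, another interferon-induced gene, had 36.1 and 115 against 8.12 and 3.22 CPM and rose by 3.32 ± 0.55 (adjusted p 0.000308). All 3 were higher in both double mutant libraries than in either Jak2V617F library. Gbp7, of the family of Gbp2, had 352 and 665 against 122 and 191 CPM and rose by 1.42 ± 0.30 (adjusted p 0.00456). The 4 calls held when each of the 4 libraries was left out in turn, and 8 and 10 members rose without a heart-high library. With only the 4 HSC libraries 2 rose, and Gbp2 (adjusted p 0.0733), Gbp7 (0.0524) and Ifi44 (0.121) did not pass.

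Most of the classical interferon genes did not pass. Isg15, a ubiquitin-like modifier, differed by 1.18 (adjusted p 0.833). Iigp1, an interferon-induced GTPase, had 285 and 605 against 45.6 and 5.69 CPM and did not pass (4.37, adjusted p 0.271). Outside the list, Mndal, an interferon-inducible DNA-sensor family gene, had 273 and 479 CPM in the double mutant and 46.2 and 34.3 CPM in Jak2V617F, a rise of 2.90 ± 0.33 (adjusted p 1.21e-06). Tgtp2, an interferon-induced GTPase, had 175 and 295 against 26.5 and 19.4 CPM and rose by 3.01 ± 0.41 (adjusted p 6.15e-05). Mndal and Tgtp2 have near-identical relatives, and how reads were divided among them is uncertain.

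The stretches below show GAAA followed by any 2 bases and GAAA again, the core of the element that interferon-activated factors bind. They lie in the 250 bases before a RefSeq start of genes that rose. A gene could have several such windows and was counted if any of them held the letters. A RefSeq start can lie inside the counted gene, as in Mmrn1 and in Mndal (173857220 to 173942491). The sequences come from RefSeq (GRCm38.p6) and read 5′ to 3′ on the strand of the gene. Capitals mark the match on either strand, the site to which the later counts refer.
Gbp2 (chr3:142620594-142620623, + strand): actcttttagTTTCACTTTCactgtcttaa
Gbp7 (chr3:142530273-142530302, + strand): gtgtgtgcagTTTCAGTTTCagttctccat
Tgtp2 (chr11:49064263-49064292, - strand): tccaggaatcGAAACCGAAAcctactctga
Mndal (chr1:173880204-173880233, - strand): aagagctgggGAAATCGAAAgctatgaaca
Mmrn1 (chr6:60944231-60944260, + strand): gcatacctggGAAAAGGAAAattgctttct
Itga2b (chr11:102469982-102470011, - strand): cagaggaagaGAAAGAGAAAggggattgcc
The match shown lay 50 to 59 bases before the RefSeq start in Gbp2, 44 to 53 in Gbp7 and 61 to 70 in Tgtp2. It lay 27 to 36 bases before that start in Mndal, 67 to 76 in Mmrn1 and 109 to 118 in Itga2b. Mndal also held a match at 45 to 54 bases in another window. Of 13139 tested genes with a window, 440 (3.35%) held the letters on either strand, against 16 of 131 genes called higher (12.2%), 10 of 283 called lower (3.53%) and 13 of the 22 interferon response genes with a window (59.1%). A match describes the letters of a window and does not show that a factor binds there.

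STAT5, the main factor downstream of JAK2, binds TTCNNNGAA, which reads the same on both strands. These letters, in capitals below, are shown for a pair of genes that rose, again from RefSeq (GRCm38.p6) and on the strand of the gene.
Serpina3g (chr12:104236104-104236132, + strand): taagttatagTTCCCAGAAatcacccggt
Gcnt2 (chr13:40886521-40886549, + strand): ttcaactcttTTCTGTGAAgtcttcaggt
They were found in 943 of the 13139 tested genes with a window (7.18%) and in 19 of 131 genes called higher (14.5%). They were also found in 21 of 283 called lower (7.42%) and in 2 of 11 genes of the STAT5 target list (18.2%). The motifs share the letters GAA, were counted separately and may overlap. Serpina3g, an inhibitor of cysteine proteases, had 390 and 1580 CPM in the double mutant and 52.1 and 67.0 CPM in Jak2V617F, a rise of 3.42 ± 0.36 (adjusted p 5.4e-07), although its gene family is large and the split of reads among its members is uncertain. Gcnt2, a glycosyltransferase, rose by 2.27, and its window lay inside the counted gene (chromosome 13, 40859768 to 40960891).

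Of 17 STAT5 target genes, 3 rose, none fell, and the list median was 0.27. Pim1, a serine/threonine survival kinase, had 350 and 442 CPM in the double mutant and 118 and 139 CPM in Jak2V617F, a rise of 1.39 ± 0.31 (adjusted p 0.00644). Bcl2l1, which encodes the anti-apoptotic BCL-XL, had 72.9 and 158 against 33.6 and 35.7 CPM and rose by 1.38 ± 0.35 (adjusted p 0.0196). The groups did not overlap in either gene. Socs2, given above, was the third. Cish, a feedback inhibitor, had 46.4 and 90.9 against 21.5 and 20.3 CPM but did not pass (adjusted p 0.171), and Myc differed by -0.14 (adjusted p 0.937). Of 25 JAK-STAT pathway genes and receptors, 1 rose and 2 fell, both receptors of granulocytic cells. Over all genes tested 0.953% rose and 1.79% fell. Csf3r, the granulocyte colony-stimulating factor receptor, had 21.3 and 70.4 CPM in the double mutant and 62.4 and 137 CPM in Jak2V617F, so the ranges overlapped, and fell by 1.52 (adjusted p 0.00683). Csf2rb, the shared receptor chain of interleukin-3 and related cytokines, fell by 1.75 (adjusted p 0.00166). Epor, the erythropoietin receptor, differed by -1.77 (adjusted p 0.057). Without the heart-low double mutant library Bcl2l1 (adjusted p 0.321), Csf3r (0.189) and Csf2rb (0.0792) lost their calls, and so did Bcl2l1 without the heart-low (0.245) and Csf3r without the heart-high Jak2V617F library (0.259). With only the 4 HSC libraries none of the STAT5 targets rose, with Pim1 at an adjusted p of 0.0535, Bcl2l1 at 0.0806 and Socs2 at 0.0885, and Csf3r (0.0665) did not pass either.

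Of 39 Hox genes, 21 could be tested and 2 rose, beside 0.953% over all genes tested. Hoxa9, a homeobox factor of stem and progenitor cells, had 18.1 and 45.9 CPM in the double mutant and 3.16 and 4.64 CPM in Jak2V617F, a rise of 2.67 ± 0.62 (adjusted p 0.011). Hoxa10, its neighbour in the cluster, had 18.7 and 32.7 against 1.20 and 1.67 CPM and rose by 3.85 ± 0.83 (adjusted p 0.00504). Both genes were separated between the groups, while the list median was 0.44 within the heart-high and 0.77 within the heart-low libraries, against 2.36 in the fit, and the summed level of the list was at most 171.5 CPM in the 4 libraries. Of 14 imprinted genes tested, Sgce, a sarcoglycan, rose by 2.81 (adjusted p 0.0164) and Grb10, an inhibitor of growth factor receptors, by 1.54 (adjusted p 0.0285). Without the heart-low Jak2V617F library Hoxa9 (adjusted p 0.0624), Sgce (0.119) and Grb10 (0.216) lost the call, and without the heart-low double mutant library Hoxa9 (0.165), Sgce (0.351) and Grb10 (1). The 3 also lost it with only the 4 HSC libraries (adjusted p 0.0663, 0.318 and 0.395), and Grb10 with DESeq2 size factors (0.0792), the log2 heart share as the term (0.0708) and a minimum count of 20 (0.0734).

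The genes of smallest p that rose included several outside the lists. Sla2, an adaptor that dampens receptor signalling, had 42.8 and 137 CPM in the double mutant and 1.80 and 6.31 CPM in Jak2V617F, a rise of 4.23 ± 0.56 (adjusted p 1.64e-05). Cavin1, a coat protein of caveolae, had 698 and 922 against 182 and 75.3 CPM and rose by 2.51. Tbxas1, thromboxane A synthase, had 113 and 372 against 24.1 and 38.7 CPM and rose by 2.49. All 4 values kept the groups apart in each. Maml2, a coactivator of Notch signalling, had 114 and 172 against 21.1 and 15.6 CPM and rose by 2.66. Myct1, a membrane protein of HSC and endothelium, had 100.2 and 306 against 26.1 and 19.9 CPM and rose by 2.69. Trpc6, a cation channel, rose by 4.95. These 6 calls also held when each library was left out in turn, and that of Myct1 was lost with only the 4 HSC libraries (adjusted p 0.0558).

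Granulocyte and monocyte genes were lower in the double mutant. Of 20, 9 fell and none rose, the list median was -3.52, with -2.45 within the heart-high and -4.37 within the heart-low libraries, and the summed level was 5543 and 3188 CPM in the double mutant against 35170 and 61240 CPM in Jak2V617F. In the Mx1-Cre control HSC it was 78620 and 83520 CPM, and in Vav-Cre control HSC 1372 to 3959 CPM. S100a8 (ENSMUSG00000056054, chromosome 3, 90669071 to 90670034), a calcium-binding protein of neutrophils, had 378 and 266 CPM in the double mutant and 4426 and 3491 CPM in Jak2V617F and fell by 3.84 ± 0.36 (adjusted p 2.64e-08), the smallest p of all genes. Its partner S100a9 had 271 and 157 against 2642 and 2727 CPM and fell by 3.87 (adjusted p 1.75e-05). Elane, neutrophil elastase, had 488 and 359 against 3115 and 4651 CPM and fell by 3.22 (adjusted p 0.0212). In these genes the Jak2V617F libraries were the higher ones at both heart levels, and Camp, an antimicrobial peptide of granules, fell likewise by 3.66 (adjusted p 0.0309). Prtn3, proteinase 3, fell by 2.29 (adjusted p 0.000347), Lyz2, lysozyme, by 2.34 (adjusted p 0.0197) and Cebpe, a factor of granule formation, by 3.60 (adjusted p 0.00177). Mpo, myeloperoxidase, had 939 and 366.5 CPM against 6113 and 9756 CPM and did not pass (-3.53 ± 0.95, adjusted p 0.186). Beyond the list, Fgr, a Src family kinase of myeloid cells, fell by 3.33 and Itgb2, the leukocyte integrin chain, by 2.52. The number of members that fell was 11 to 18 when a library was left out, 18 without the heart-high double mutant and 16 without the heart-high Jak2V617F library, and Cebpe (adjusted p 0.0575) lost its call without the heart-low double mutant library and with only the 4 HSC libraries (0.0644). With the log2 heart share as the term 5 members fell, and Elane (adjusted p 0.112), Camp (0.0894) and Lyz2 (0.093) did not pass.

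**Figure D3:**
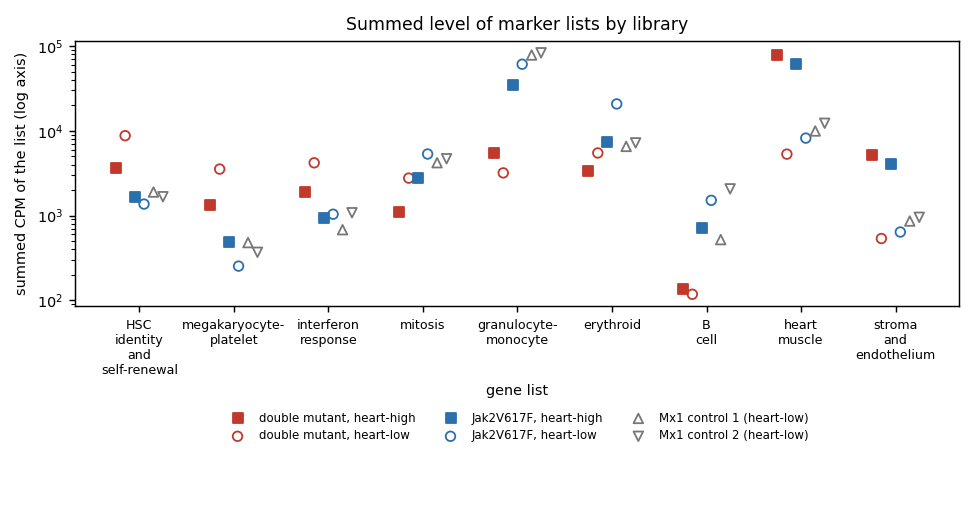
Summed CPM of each gene list on a log axis, in the 4 HSC libraries (squares heart-high, circles heart-low) and in the 2 Mx1-Cre control HSC libraries (triangles). The granulocyte-monocyte sum is 5543 and 3188 CPM in the double mutant and 35170 and 61240 CPM in Jak2V617F, while the heart muscle sum separates the libraries by heart level and not by group.

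Of 19 red cell genes, 3 fell and none rose, with a median of -2.17. Gata1, the master transcription factor of red cells and megakaryocytes, had 39.3 and 126 CPM in the double mutant and 116 and 445 CPM in Jak2V617F and fell by 1.89 ± 0.32 (adjusted p 0.000347). The ranges of the groups overlapped over all 4 libraries, but the double mutant was lower at each heart level. Klf1, a transcription factor of globin genes, had 2.36 and 2.66 against 12.1 and 38.7 CPM and fell by 3.13 (adjusted p 0.00231). Car2, carbonic anhydrase 2, had 2407 and 4999 against 4436 and 12186 CPM and fell by 1.27 (adjusted p 0.0229). Car1, another carbonic anhydrase of red cells, stood at 173 and 94.0 against 1057 and 3787 CPM and did not pass (adjusted p 0.202). Without the heart-low double mutant library Klf1 (adjusted p 0.246) and Car2 (0.949) lost their calls while 8 members fell, and 15 and 16 fell without a heart-high library. In a fit of only the 4 HSC libraries 1 member fell and Klf1 (adjusted p 0.0772) and Car2 (0.296) did not pass, and Car2 did not with the log2 heart share as the term (0.143). In the fit without the heart term the list median was -2.43, and it ranged from -3.47 without the heart-high double mutant to -1.34 without the heart-low Jak2V617F library.

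Of 13 B cell genes, 2 fell and none rose. Over all genes tested 1.79% fell and 0.953% rose, which stands beside each count in this paragraph. Blnk, an adaptor of the B cell receptor, had 3.96 and 2.88 CPM in the double mutant and 24.4 and 72.1 CPM in Jak2V617F and fell by 3.71 ± 0.55 (adjusted p 6.79e-05). Vpreb1, a part of the pre-B cell receptor, fell by 3.73 (adjusted p 0.00757). Ighm, the immunoglobulin mu chain, had 67.4 and 21.9 against 496 and 907 CPM and did not pass (-4.30, adjusted p 0.148). The double mutant was the lower group at both heart levels in these genes. Among 18 genes of lymphoid priming, 4 fell and 2 rose. Cd48 fell by 2.91 ± 0.37 (adjusted p 1.41e-05). Ikzf1, the lymphoid factor Ikaros, fell by 1.65 (adjusted p 0.00205). Cd52, a lymphocyte surface protein, fell by 3.36 (adjusted p 0.00727). The members that rose were Cd27, a receptor of the tumour necrosis factor family (1.33, adjusted p 0.0226), and Mef2c, a transcription factor (1.26, adjusted p 0.0118). Of 13 T and NK cell genes, Nkg7, a granule protein, fell by 2.57 (adjusted p 0.00757), Ncr1, an NK cell receptor, fell by 4.48 (adjusted p 0.037), and Lat, an adaptor also made in platelets, rose by 2.52 (adjusted p 0.013). Calls were lost without the heart-low Jak2V617F library for Vpreb1 (adjusted p 0.164), Cd27 (0.644), Mef2c (0.164) and Lat (0.169), without the heart-low double mutant library for Vpreb1 (0.143), Cd27 (0.105), Mef2c (0.194), Ncr1 (0.475) and Lat (0.165), and without the heart-high Jak2V617F library for Ikzf1 (0.0766). When only the 4 HSC libraries were fitted, Blnk (adjusted p 0.0558), Vpreb1 (0.0775), Cd27 (0.123), Mef2c (0.109), Ncr1 (0.179) and Lat (0.0771) did not pass, and Ncr1 did not with the log2 heart share as the term (0.0677) or a minimum count of 20 (0.0523).

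**Figure D4:**
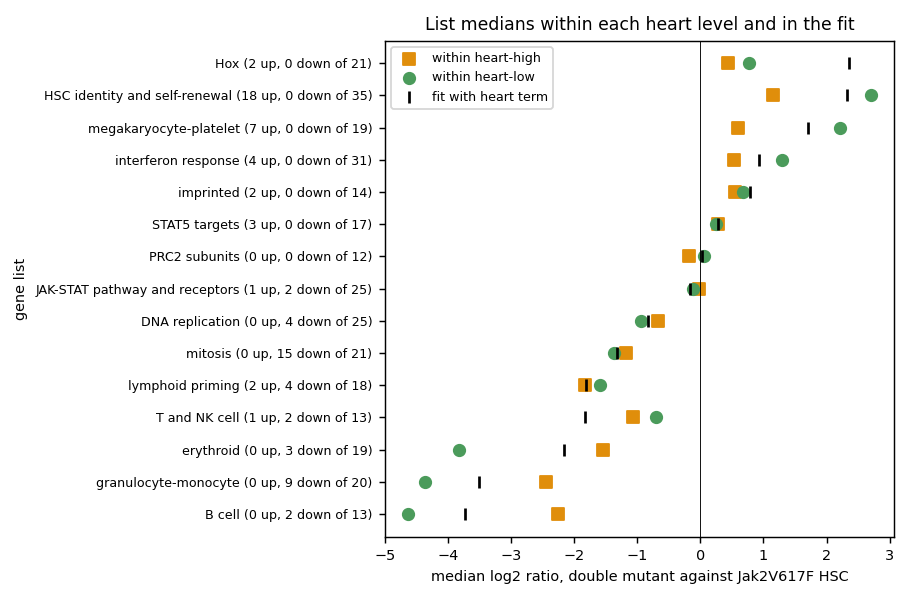
Median log2 ratio of 15 gene lists in the double mutant against Jak2V617F HSC, with orange squares for heart-high against heart-high, green circles for heart-low against heart-low and black ticks for the fit with the heart term, and with the number of members called beside each name. The HSC list has medians of 1.15 and 2.71 at the 2 heart levels and the granulocyte-monocyte list medians of -2.45 and -4.37.

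Of 21 mitosis genes, 15 fell and none rose, with a median of -1.32 that was alike within the heart-high (-1.19) and the heart-low libraries (-1.38). Mki67, a marker of cycling cells, had 67.3 and 210 CPM in the double mutant and 241 and 429 CPM in Jak2V617F and fell by 1.71 ± 0.31 (adjusted p 0.000775). Top2a, the topoisomerase of chromosome separation, had 266 and 695 against 728 and 1271 CPM and fell by 1.42 (adjusted p 0.00421). Cdk1, the mitotic kinase, had 55.3 and 142 against 122 and 255 CPM, which overlapped, and fell by 1.23 (adjusted p 0.0165). Levels were lowest in the heart-high double mutant library, and the heart-low double mutant library lay near the heart-high Jak2V617F library in these genes. All 25 DNA replication genes had negative values and 4 fell. Among them were Rrm2, a subunit of ribonucleotide reductase, with 273 and 541 against 814 and 1573 CPM (-1.77, adjusted p 0.000991), and Cdc6, a replication licensing factor, which fell by 2.02 (adjusted p 0.0116). The mitosis calls depended on single libraries. With either the heart-low double mutant or the heart-high Jak2V617F library left out, 1 member fell, with Top2a at an adjusted p of 0.115 and 0.175 and Cdk1 at 0.645 and 0.312. Mki67, Rrm2 and Cdc6 passed without each library in turn. In a fit of only the 4 HSC libraries 3 mitosis genes fell and Mki67 (adjusted p 0.0524) and Rrm2 (0.0556) did not pass, nor did Cdc6 with the log2 heart share as the term (0.144). Cdk6, a kinase of exit from quiescence, differed by -0.68 (adjusted p 0.488).

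None of the 12 PRC2 subunit genes passed, and their median was 0.03. Ezh2, the methyltransferase of the complex, differed by -0.82 (adjusted p 0.171), Suz12 by -0.39 (adjusted p 0.723) and Eed by -0.42 (adjusted p 0.738), the last 2 being its core subunits. The lists of mast cells, inflammatory genes, glycolysis, immediate early genes, fetal genes, stroma, skeletal muscle, heart muscle and sex-linked genes held no called gene either.

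The knockout of Jarid2 was also studied without Jak2V617F, in 3 HSC libraries of Vav-Cre Jarid2-KO and 3 of Vav-Cre control mice, none of them part of the comparison described here. Of 40 genes called higher there, 10 rose in the double mutant and none fell, with a median of 1.07, and of 49 tested genes called lower there, 5 rose, 1 fell and the median was 0.51. Both medians were thus above the -0.09 of all genes, and the lower Vav list did not stand on the negative side. Mycn was higher in both, by 1.09 in Vav (adjusted p 0.039) and by 4.67 in the double mutant. Zfp367, a zinc finger protein, was higher by 1.50 in Vav (adjusted p 0.019) and had 197 and 280 CPM in the double mutant against 51.5 and 58.4 CPM in Jak2V617F, a rise of 1.85 ± 0.35 (adjusted p 0.0013). H2-Aa, the alpha chain of the MHC class II molecule that presents antigen, was lower by a log2 of -1.36 in Vav (adjusted p 0.019) and higher here, with 140 and 412 against 45.3 and 75.8 CPM (1.79, adjusted p 0.00118). Hlf (-0.18, adjusted p 0.747), Runx1t1 (0.04, adjusted p 0.939) and Slamf1 (0.43, adjusted p 0.603) did not pass in Vav, beside 3.38, 3.72 and 2.71 here. Tgtp2 likewise was at -1.20 in Vav (adjusted p 0.043) and at 3.01 here. The gene that was lower in both was Cenpf, a centromere protein, with -1.16 in Vav and -1.10 here, a call lost with only the 4 HSC libraries (adjusted p 0.112), a minimum count of 20 (0.0523), no filter (0.0863), and without any 1 of the heart-high Jak2V617F (adjusted p 0.411), heart-low Jak2V617F (0.136) and heart-low double mutant library (1). The difference between the cohorts was not tested, since their counts rest on different exon lists. The Vav-Cre mice were also labelled younger than the Mx1-Cre mice, with no time after pIpC given. The part of age and induction in these contrasts, including that of the interferon-induced Tgtp2, was not tested.

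**Figure D5:**
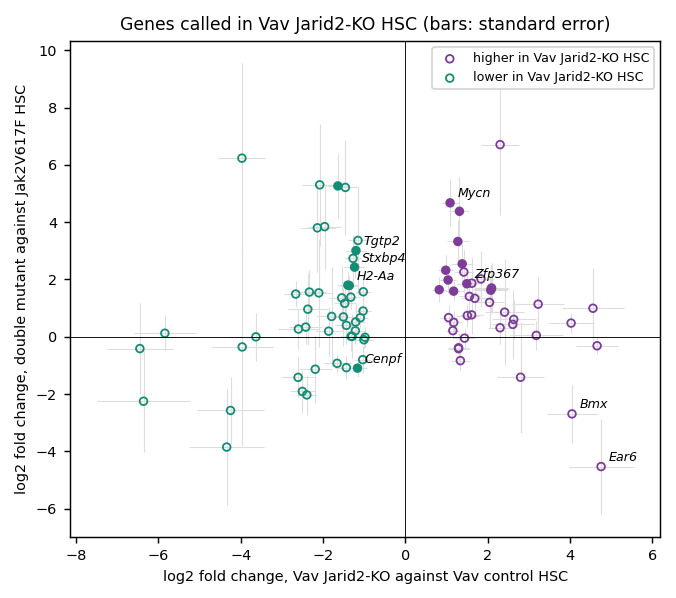
Log2 fold change of the 89 genes called in Vav-Cre Jarid2-KO against control HSC (x axis) and of the same genes in the double mutant against Jak2V617F HSC with the heart term (y axis), with standard errors as bars and filled points for genes called in both. Mycn and Zfp367 are positive on both axes, while H2-Aa and Tgtp2 are negative on the x axis and positive on the y axis.

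The same contrast in multipotent progenitors (MPP), sorted without CD150, called 116 genes with the heart term (0.591%), 32 higher (0.163%) and 84 lower (0.428%). Hlf had 180 and 352 CPM in double mutant and 19.9 and 28.9 CPM in Jak2V617F MPP and was higher by 3.01 (adjusted p 0.000496), beside 3.38 in HSC. The difference between the effects in HSC and MPP was tested for every gene, and 3 passed with the heart term (0.0153%), all of them lower in the HSC contrast, while 733 had an unadjusted p under 0.05. Without the heart term none passed (0%), and 479 had an unadjusted p under 0.05.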

How the data were processed

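RNA-seq counts were read from 1 table per library for the 12 Mx1-Cre libraries (6 groups of 2) and, for the Vav-Cre lists, the 12 Vav-Cre libraries. The submitters' processing notes name the build mm10 and the tools Partek 6.6, HTSeq 0.8.0, featureCounts 1.4.5, Subread and STAR 2.0.4, with no role or order for any of them. Each gene has a raw count, a CPM value and an RPKM value per the file headers; the authors' deposited CPM scales the deposited count to the library total, and the deposited RPKM, CPM per kilobase, was not used. The deposited CPM equalled counts over the library total to within 5.09e-11, and printed CPM are these values. Each table lists 41388 genes.

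Total counts ran from 7852483 to 20724168 per Mx1-Cre library. The 12 were fitted together in edgeR 4.0.16 (R 4.3.3) with TMM scaling, filterByExpr (minimum count 10, minimum total 15; 19616 genes), robust quasi-likelihood F tests and Benjamini-Hochberg adjustment at 0.05, without and with a 2-level term for heart RNA (over 4% of counts in 20 heart genes), leaving 6 and 5 residual degrees of freedom and coefficients of variation of 0.786 and 0.556. The standard error (SE) is the log2 difference over the square root of F. Within-level ratios used TMM-scaled CPM with a pseudocount of 1. The Vav-Cre libraries were fitted apart, since 14573 genes have exons listed differently in the 2 cohorts. The genes named are Jarid2, Jak2, Hlf, Slamf1, Mycn and Runx1t1, up to 15 of smallest p and 15 of largest within-level fold in each direction, genes called in Vav-Cre Jarid2-KO HSC, and members of 28 gene lists, which were described by counts and medians. The members, lists and rules were chosen with earlier results of these data known. Some genes chosen this way are left unreported, so neither the named genes nor the results given a closer look are complete. The other samples of the series were not analysed here.

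Alternatives were DESeq2 1.42.0 (Wald test and size factors), limma-voom of limma 3.58.1 with quality weights, TMM without heart genes, other filters and pseudocounts, the log2 heart share as term, only the 4 libraries, the replicate number as a block and leaving out each library. Simulated counts were drawn from the means and dispersion of the heart term fit, with the double mutant effect removed. Then 200 genes with an average log2 CPM over 2 were changed. The heart term was thus true by construction, so the 2 fits cannot be ranked on these data. There the fit with the term found 12% of genes changed by a log2 of 1, 60% at 2, 86% at 3 and 96% at 4. The fit without it found 0% to 2%.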

Additional observations from a re-analysis of the deposited data

Results flagged for a closer look

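Of the 19616 genes tested for a difference between the double mutant effect in HSC and that in MPP, 3 passed with the heart term and 0 without it (479 at an unadjusted p under 0.05), and Blvrb and Cd24a among the 3 stood lower in the HSC contrast and higher in the MPP contrast. Blvrb, a biliverdin reductase, differed between the contrasts by a log2 of -3.14 (adjusted p 0.00397, fit with the heart term), with -2.31 in HSC and 0.82 in MPP. Its levels were 35.1 and 69.9 CPM in double mutant and 136 and 332 CPM in Jak2V617F HSC, beside 149.5 and 758 CPM in double mutant and 97.6 and 132 CPM in Jak2V617F MPP. Cd24a, a surface protein of red cell precursors and lymphoid cells, differed by -2.78 (adjusted p 0.0123), with -2.18 in HSC and 0.60 in MPP. In double mutant MPP it had 271 and 1256 CPM, against 217 and 257 CPM in Jak2V617F MPP. The edgeR test with the heart term called neither gene in MPP (adjusted p 0.632 and 0.874). For both genes the highest MPP value was in the heart-low double mutant library. Its red cell genes summed to 30120 CPM, against 6022, 6633 and 6502 CPM in the other MPP libraries of these groups. The part of this content was not tested. With each of the 8 HSC and MPP libraries of these groups left out in turn, both differences passed. Neither passed with the log2 heart share as the term (adjusted p 0.0652 for each), and that of Cd24a did not with a minimum count of 20 (adjusted p 0.0717).

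Both Jak2V617F MPP libraries are heart-high, and the part of that imbalance in these differences was not tested beyond the heart term.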

How the results depend on the processing

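Without the heart term, the count of genes called in HSC was 0 under both scalings, the replicate block, the stricter filter and the 4 libraries alone, 345 with DESeq2, 2 with limma-voom, 258 with no filter and 0 to 8 when a library was left out. With the term, the 539 became 1136 with DESeq2, 935 with limma-voom, 841 with no filter, 129 (113 of them shared) with only the 4 libraries and 289 to 1162 when a library was left out. The count of genes at least 2-fold apart at both levels was 1945 with a pseudocount of 0.25 CPM, 679 with 4 CPM and 712 among genes of at least 10 CPM, against 1205. For the difference between HSC and MPP, DESeq2 called 21 and no filter 35 without the term (0 to 2 with a library left out). With it the calls were 46 with DESeq2, 42 with limma-voom, 1 with the log2 heart share, 1 with a minimum count of 20, 71 with no filter and 32 to 244 with a library left out. List medians of the fit without the heart term changed to 0.33 for STAT5 targets under DESeq2 size factors (main 0.27), and with the term to -0.16 for JAK-STAT genes, 2.36 for Hox, 0.79 for imprinted, -1.83 for T and NK cell genes and 0.51 for genes lower in Vav-Cre Jarid2-KO. With a library left out, medians ranged from 1.05 to 1.88 for genes higher and 0.59 to 1.10 for genes lower in Vav-Cre Jarid2-KO, 0.95 to 2.41 for megakaryocyte and platelet genes, -3.47 to -1.34 for red cell genes, 0.38 to 1.17 for STAT5 targets, -0.0499 to 0.20 for JAK-STAT, 1.45 to 4.84 for Hox, -0.16 to 2.21 for imprinted, -2.35 to -1.19 for lymphoid priming, -2.76 to -1.29 for T and NK cells, -1.91 to -0.65 for mitosis, -1.40 to -0.14 for DNA replication and -0.35 to 0.16 for PRC2 genes. Of 95 genes named, 75 passed with the heart term, 31 of these under all 12 alternatives, and none of the 75 changed direction. Uncalled genes did. Jak2 (0.00) ranged from -0.0032 to 0.20, Myc (-0.14) from -0.43 to 0.41 and Ppbp (-0.98) from -4.20 to 2.04 with a library left out, and Myc was at 0.0067 with no filter. The cause was not tested.

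Same-numbered HSC libraries of the groups deviated oppositely from their group means (correlation -0.614, and 0.101 in MPP). They also differ in heart level, so this correlation cannot show whether the replicate numbers pair the groups. Across HSC and MPP the same number gave 0.69 in the double mutant and -0.071 in Jak2V617F. The replicate block called 780 genes with the heart term, 538 of them shared, and 0 without it. A block with crossed numbers, chosen after seeing the data, paired libraries of the same heart level in the 2 HSC groups compared. It could not do so in MPP, where both Jak2V617F libraries are heart-high. Without the heart term this crossed block called 27 genes. In the simulation drawn from the heart term fit, that fit found 12% of genes changed by a log2 of 1.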

Other observations

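Among called genes outside the lists, Csgalnact1, an enzyme of chondroitin sulfate synthesis, had 67.0 and 161 CPM in the heart-high and heart-low double mutant and 8.89 and 16.8 CPM in the Jak2V617F libraries, a rise of 2.83. Nupr1, a stress-induced nuclear protein, had 63.1 and 177 against 8.80 and 13.9 CPM and rose by 3.00, a call lost with the log2 heart share as the term (adjusted p 0.0681). Stxbp4, a syntaxin-binding protein, rose by 2.43 here and was lower by a log2 of -1.23 in Vav-Cre Jarid2-KO HSC. The groups did not overlap in Csgalnact1 and Nupr1.

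Of 18 ribosome biogenesis genes all had negative values and 1 fell, Rrp12, an assembly factor, with 28.9 and 34.4 against 66.7 and 64.4 CPM (-1.32, adjusted p 0.0264). Over all genes tested 1.79% fell. Rrp12 lost its call when any 1 of the 4 libraries was left out (adjusted p 0.0685 to 0.556).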
